A study of Homo sapiens with 6 samples.

Results

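The endothelin 1 axis and the scavenger receptor OLR1 were examined in HepG2 cells treated with polydatin (PD). The set comprised 7 genes chosen by name, namely EDN1 and EDN2 (ligands), ECE1 and ECE2 (converting enzymes), EDNRA and EDNRB (receptors), and OLR1. They were picked because EDN1 and OLR1 had some of the largest falls in this very comparison, so the levels of the 7 genes are given as a description with no test. Of the 28563 genes in the deposited table, 6 of the 7 were analysed. EDNRB was not analysed here. The mean over the 6 libraries reached 0.5 FPKM for 5 of them, and EDN2 was under this minimum.

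HepG2 is an established human line of liver cancer origin. PD, a glucoside of resveratrol, occurs in plants. In the RNA-seq experiment, plates of HepG2 cells were given PD at 336 µM, as the labels state (the paper states a lower dose), or DMSO, the solvent of PD, for 24 h. Each group had 3 plates of the same line and 1 library was made per plate, so the spread between replicates is that between plates of a single line. Values are FPKM (fragments per kilobase of gene, scaled to the number of fragments in the library), which allow levels to be compared between genes as well as between libraries.

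Endothelin 1 is a short peptide that constricts blood vessels and is best known as a product of endothelial cells. Its precursor is cut by furin-type proteases to big endothelin, which the membrane proteases ECE1 and ECE2 convert to the active peptide. The active peptide then binds the G protein-coupled receptors EDNRA and EDNRB, of which EDNRA mainly mediates contraction and growth signals and EDNRB also clears the peptide. OLR1, also called LOX-1, is a C-type lectin of the cell surface that takes up oxidized low-density lipoprotein (LDL), and endothelin 1 is among the agents known to raise it in endothelial cells.

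The DMSO libraries held between 16763318 and 17274927 fragments and the PD libraries between 16308476 and 18071632, so the range of PD was wider and included that of DMSO. Of 17 hepatocyte markers, 9 were analysed, and 7 of those, with APOA1, SERPINA1, TF and HNF4A among them, stayed at or below 0.172 FPKM in every library. The others, ALB, AFP, APOA2, APOB, APOH, TTR, FGB and AHSG, had no values among the 28563 genes and were not analysed. CPS1, a urea cycle enzyme, was by contrast abundant, with 225 ± 3.45 FPKM in DMSO and 109 ± 2.60 FPKM in PD (SD, n = 3 each), and RBP4 had 0.391 ± 0.0803 and 1.3 ± 0.376 FPKM (SD, n = 3 each). Apart from CPS1, the hepatocyte markers analysed were thus low, with RBP4 at most 1.73 FPKM in any library. Most of these markers therefore do not show a liver origin of the cells, and cell identity was not tested. The name HepG2 is used as the labels give it. Endothelial markers were also low. Of 10 analysed, 8 remained at or below 0.38 FPKM in every library, including PECAM1, VWF, CDH5, TEK and TIE1, while ESAM and EGFL7 were present at 30.6 ± 1.76 and 12.4 ± 0.633 FPKM in DMSO (SD, n = 3 each). The 4 monocyte and macrophage markers analysed had at most 0.168 FPKM. Among epithelial markers, KRT8 and KRT18 had 50.1 ± 2.04 and 46.5 ± 1.37 FPKM in DMSO, EPCAM had 1.17 ± 0.336 FPKM and CDH1 had 0.127 ± 0.0278 FPKM (SD, n = 3 each).

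EDN1, on chromosome 6 of GRCh38 from 12290361 to 12297194, had 25.2, 27.2 and 22.1 FPKM in DMSO replicates 1, 2 and 3 and 2.59, 2.95 and 2.71 FPKM in PD replicates 1, 2 and 3. All DMSO libraries were therefore far above all PD libraries, and the lowest DMSO value was 7.48 times the highest PD value. The means were 24.8 ± 2.58 and 2.75 ± 0.183 FPKM (SD, n = 3 each), so that 11.1% of the DMSO level was left in PD. These values rested on 2578 fragments in DMSO and 290 in PD, with at least 90 in each library. In RNA from whole plates, fewer cells making a transcript and less transcript per cell cannot be told apart. On the log2(FPKM + 1) scale the difference was -2.78, with a standard error of 0.08. It was the lowest of the 14400 genes that reached 0.5 FPKM on average and were tested. With a pseudocount of 0.1, which brings forward genes of low FPKM, it was number 24 from the lowest, and by voom on fragments it was number 10 of 15067 genes.

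The level of EDN1 moved down among the genes of the table. In DMSO, 92.9% of the 28563 genes had a lower mean FPKM than EDN1, and in PD this was 66.2%. These shares count every gene, although only 14400 reached a mean of 0.5 FPKM over the 6 libraries. The plot of levels by library shows this shift beside those of the other members.

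**Figure D1:**
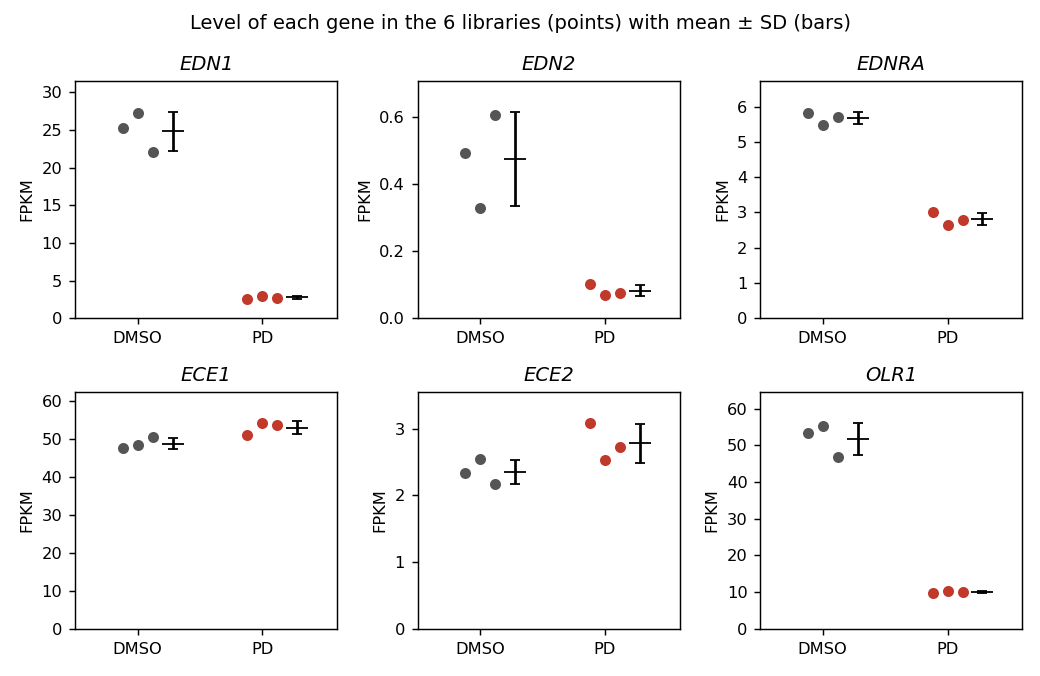
FPKM of the 6 analysed genes in the 3 DMSO (grey) and 3 PD (red) libraries, with the mean and SD (n = 3) of each group as black bars; each panel has its own axis from 0. EDN1, EDN2, EDNRA and OLR1 were lower in all PD libraries, ECE1 was slightly higher in all of them, and the groups of ECE2 overlapped.

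Transcription of EDN1 is known to depend on a short stretch before its start, where a GATA site, an AP-1 site and a hypoxia element have been described in endothelial cells. The 250 bases upstream of the start are therefore shown for both ligand genes, from RefSeq promoter windows of GRCh38.p14, read 5′ to 3′ on the strand of the gene. The EDN1 window is chr6:12290111-12290360 on the plus strand and the EDN2 window is chr1:41484684-41484933 on the minus strand. Capitals mark matches, on either strand, to 9 motifs that were searched, namely AP-1 (TGANTCA), an AP-1 variant (TGACTAA), CRE (TGACGTC), the GATA factor motif (AGATAA), NF-kB, hypoxia (ACGTG), forkhead (GTAAACA), SMAD (GTCTAGA) and the TATA box (TATAAA), none of which overlap each other in this window.
EDN1: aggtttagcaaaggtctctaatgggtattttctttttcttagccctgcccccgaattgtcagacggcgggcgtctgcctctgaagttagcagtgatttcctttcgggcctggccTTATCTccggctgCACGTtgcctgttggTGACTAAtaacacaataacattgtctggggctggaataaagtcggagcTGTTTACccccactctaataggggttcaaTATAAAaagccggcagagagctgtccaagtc
EDN2: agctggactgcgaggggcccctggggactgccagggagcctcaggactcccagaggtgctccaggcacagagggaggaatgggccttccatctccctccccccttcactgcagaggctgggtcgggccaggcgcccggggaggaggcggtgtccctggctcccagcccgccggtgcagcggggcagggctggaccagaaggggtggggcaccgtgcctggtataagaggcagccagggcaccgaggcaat

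In the EDN1 window, 5 of the 9 motifs were found. Counted from the start, with -1 as the last base before it, the GATA motif lay at -136 to -131, the hypoxia motif at -123 to -119, the AP-1 variant at -108 to -102, the forkhead motif at -60 to -54 and the TATA motif at -31 to -26. Among 34943 windows of this length, these motifs were found in 9.19% (GATA factor), 18.5% (hypoxia), 1.62% (AP-1 variant), 2.98% (forkhead) and 10.8% (TATA). The EDN2 window held none of the 9 in these letters. An EDN1 window further upstream, at chr6:12287769-12288018, held an NF-kB match and a pair of hypoxia matches, the NF-kB motif being one found in 5.67% of windows. These matches were not particular to EDN1. Of the 11 windows of the members, 2 held the NF-kB motif (EDN1 and ECE1) and 4 the hypoxia motif (EDN1 and EDNRB). Windows were found for EDN1, EDN2, ECE1, EDNRA and EDNRB, and none was held for ECE2 and OLR1. A match of letters describes the sequence and does not show that a factor binds.

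EDN2, on chromosome 1 from 41478775 to 41484683, encodes endothelin 2, a close relative of endothelin 1 that acts on the same receptors. It had 14, 9 and 17 fragments in DMSO replicates 1, 2 and 3, or 0.494, 0.328 and 0.606 FPKM. In PD replicates 1, 2 and 3 it had 3, 2 and 2 fragments, or 0.101, 0.0696 and 0.0748 FPKM. The groups did not overlap, but with so few fragments the ratio is imprecise. The ratio of PD to DMSO over all fragments was 0.172, with an exact 95% interval of 0.0652 to 0.389 that covers counting error only. EDN1 made up between 97.3 and 98.8% of the summed FPKM of EDN1 and EDN2 in DMSO and between 96.2 and 97.7% in PD. It thus remained the more abundant of these ligand transcripts in both groups. The ligand gene EDN3 was not analysed.

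The receptor EDNRA, on chromosome 4 from 147480917 to 147544954, was at 5.82, 5.49 and 5.72 FPKM in DMSO replicates 1, 2 and 3. In PD replicates 1, 2 and 3 it was at 3.0, 2.65 and 2.79 FPKM, below every DMSO library. The means were 5.68 ± 0.169 and 2.82 ± 0.177 FPKM (SD, n = 3 each), and 49.6% of the DMSO level was left in PD. On the log2(FPKM + 1) scale the difference was -0.81 with a standard error of 0.06, which is short of 2-fold because the pseudocount weighs on low FPKM. By voom on fragments, which adds only a part of a fragment to each value, it was -1.01. The share of tested genes with a lower difference than EDNRA was 3.11%.

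The converting enzymes differed from the ligands and the receptor in direction. ECE1, on chromosome 1 from 21217247 to 21345572, is the main enzyme that releases endothelin 1 and was one of the more abundant transcripts, with 96.9% of genes below it in DMSO. It had 47.8, 48.4 and 50.6 FPKM in DMSO replicates 1, 2 and 3 and 51.1, 54.4 and 53.7 FPKM in PD replicates 1, 2 and 3. The groups did not overlap but lay close together, with the lowest PD value 1.01 times the highest DMSO value. The difference was 0.11 on the log2(FPKM + 1) scale with a standard error of 0.04, and scaling FPKM by the upper quartile took it to 0.07. Exons of ECE1 overlap the antisense gene ECE1-AS1, and whether counting used strand is not given in the sources used here, so its value is less certain.

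ECE2, on chromosome 3 from 184276011 to 184293031, encodes a related enzyme known mainly from neuroendocrine tissue. Its values were 2.34, 2.54 and 2.17 FPKM in DMSO replicates 1, 2 and 3 and 3.09, 2.53 and 2.72 FPKM in PD replicates 1, 2 and 3. The groups overlapped, since PD replicate 2 lay just below DMSO replicate 2. The difference was 0.17 with a standard error of 0.08. ECE2 shares exons with the readthrough gene EEF1AKMT4-ECE2, and the FPKM steps correspond to a length of 6552 bases where GENCODE release 44 gives 4729, so the authors' gene model for ECE2 was a longer one and its level relative to other genes is uncertain.

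OLR1, on chromosome 12 from 10158301 to 10172138, was at 53.4, 55.2 and 46.9 FPKM in DMSO replicates 1, 2 and 3 and at 9.88, 10.4 and 10.0 FPKM in PD replicates 1, 2 and 3. The lowest DMSO value was 4.52 times the highest PD value. The means were 51.8 ± 4.38 and 10.1 ± 0.251 FPKM (SD, n = 3 each), so that 19.5% of the DMSO level was left. With 8101 fragments in DMSO and 1603 in PD, OLR1 was measured more deeply than EDN1, and the counting interval of its ratio was 0.185 to 0.206 (exact 95%). This interval covers counting error only and not the spread between plates. The difference was -2.25 on the log2(FPKM + 1) scale with a standard error of 0.06, number 5 from the lowest of the 14400 genes. It was number 78 with a pseudocount of 0.1 and number 57 by voom on fragments. In PD, 82.9% of the 28563 genes were still below OLR1, a share that also counts the genes under 0.5 FPKM.

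**Figure D2:**
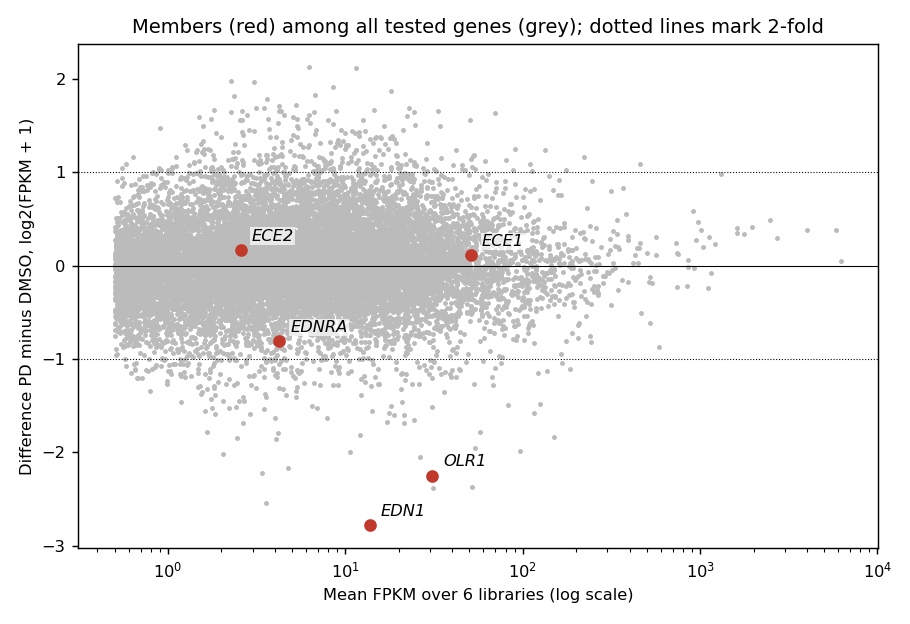
Difference PD minus DMSO on the log2(FPKM + 1) scale against mean FPKM (log axis) for the 14400 tested genes, with 5 members in red and the other genes in grey. EDN1 (-2.78) and OLR1 (-2.25) lie at the lower edge, EDNRA (-0.81) lies within 2-fold, and ECE1 (0.11) and ECE2 (0.17) lie near 0.

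Of the 5 members that reached 0.5 FPKM, EDN1 and OLR1 passed 2-fold on the log2(FPKM + 1) scale. Over all 14400 genes, 3.61% passed both an adjusted p of 0.05 (limma, Benjamini-Hochberg) and 2-fold, which is termed called, and 1.57% were called as lower in PD. The groups did not overlap in 4 of the 5, with EDN1, EDNRA and OLR1 lower and ECE1 higher in PD. Over all 14400 genes the groups did not overlap in 65.4%, with 29.9% lower and 35.6% higher in PD. Since the set was chosen from this comparison, nothing is read from these counts about the set.

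The order of the transcripts changed between the groups. In DMSO, OLR1 (51.8 FPKM) and ECE1 (48.9 FPKM) came first and overlapped each other, followed by EDN1 (24.8), EDNRA (5.68), ECE2 (2.35) and EDN2 (0.476 FPKM), none of which overlapped the next. In PD, ECE1 (53.1 FPKM) was alone at the top and OLR1 (10.1 FPKM) came next. Behind them EDNRA (2.82), ECE2 (2.78) and EDN1 (2.75 FPKM) could not be separated, because each overlapped the next, and EDN2 (0.0819 FPKM) was last.

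Ratios within a library show the same shift without reference to the library total. The ratio of ECE1 to EDN1 was between 1.78 and 2.30 in the DMSO libraries and between 18.5 and 19.8 in the PD libraries. The ratio of EDN1 to its receptor EDNRA was 3.85 to 4.95 in DMSO and 0.861 to 1.11 in PD. That of OLR1 to EDN1 went from 2.03 to 2.13 in DMSO to 3.52 to 3.82 in PD, as the ratio of PD to DMSO was smaller for EDN1 than for OLR1. EDN1 and OLR1 also had the same order of libraries within each group, with DMSO replicate 3 lowest and replicate 2 highest, and PD replicate 1 lowest and replicate 2 highest, which is a description of 3 libraries per group.

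**Figure D3:**
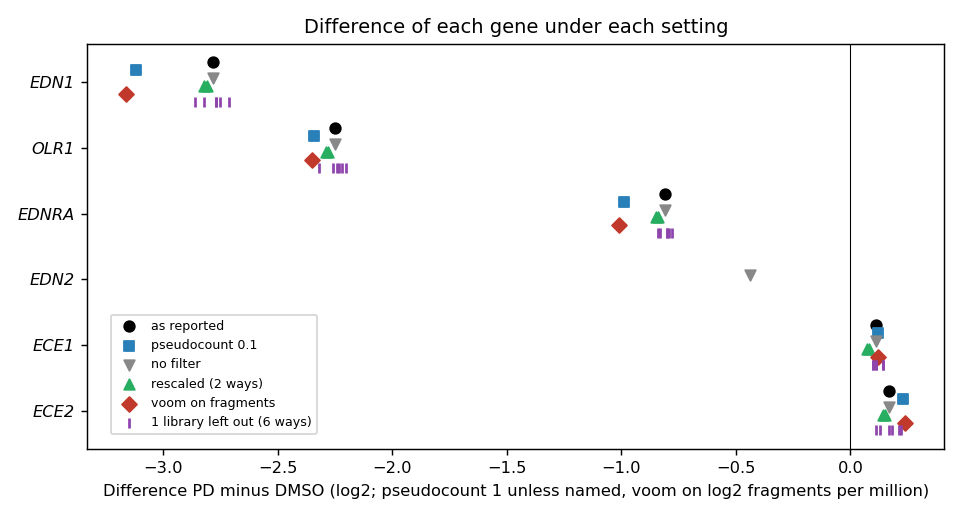
Difference PD minus DMSO (log2) of each gene as reported and under most of the other settings, with 1 symbol per kind of setting and 1 purple tick per library left out; EDN2 passed the minimum only without the filter. No gene changed sign in the settings plotted, and EDN1 and EDNRA shifted most with a pseudocount of 0.1 or by voom.

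The genes whose values over the 6 libraries were most like those of EDN1 and OLR1 were sought among the 7558 genes that averaged 5 FPKM or more. Likeness was the root mean square distance between log2(FPKM + 1) values centred on the mean of each gene, a description that is driven by the difference between the groups. Nearest to EDN1 were EFNA1, an ephrin ligand (distance 0.233), OLR1 (0.268), MIR4635 (0.36), TNFAIP3, an inhibitor of NF-kB signaling (0.375), and ENSG00000273760 (0.409). EDN1 and OLR1 were both picked for their falls in this comparison, which sets their distance from each other, so nothing is read from their places in these lists. Nearest to OLR1 were EFNA1 (0.104), TNFAIP3 (0.133), ENSG00000273760 (0.152), TCIM (0.158) and LPL, the lipoprotein lipase (0.223), with EDN1 in place 8 at 0.268.

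EFNA1 came first in both lists and went from 87.0 ± 0.585 to 16.1 ± 0.414 FPKM (SD, n = 3 each). TNFAIP3 went from 42.9 ± 1.32 to 9.65 ± 1.14 FPKM and LPL from 234 ± 1.16 to 64.8 ± 3.91 FPKM (SD, n = 3 each). MIR4635 lies within SLC12A7 and exons of TNFAIP3 overlap the antisense gene WAKMAR2, so the values of both are less certain.

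**Figure D4:**
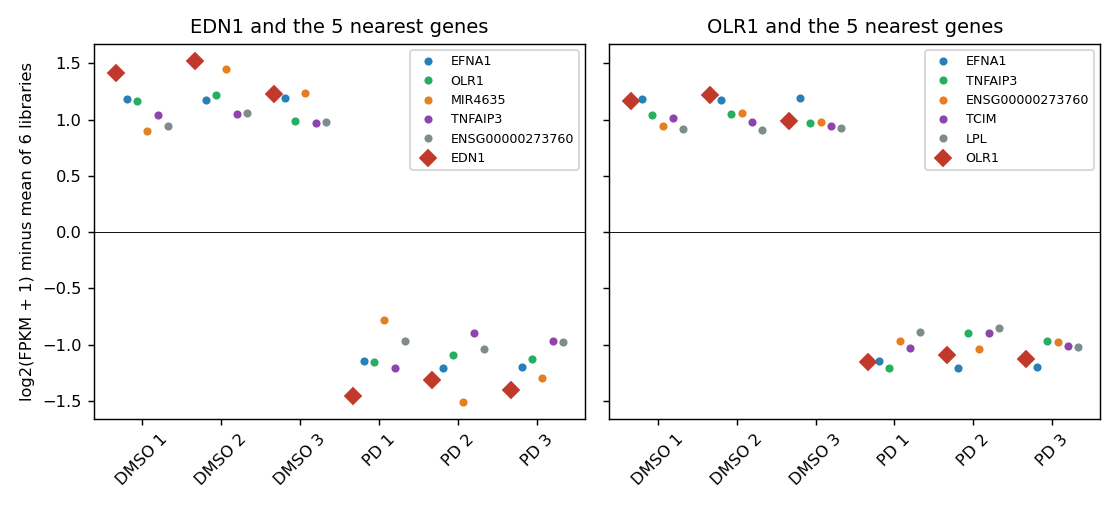
log2(FPKM + 1) of EDN1 (left) and OLR1 (right), as red diamonds, and of the 5 nearest genes of each, as dots, in the 6 libraries, centred on the mean of each gene. The mean difference of EDN1 (-2.78) was larger than that of its nearest genes (at most -2.39), and EFNA1 (distance 0.104) lay close to OLR1.

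The genomic neighbours of EDN1 and OLR1 were described next, taking the 4 nearest protein-coding genes analysed on each side. Of 16 neighbours, 9 had at least 0.5 FPKM, of which 5 fell and 3 rose (limma, adjusted p within 0.05), against 26.2% and 31.9% of all tested genes. Around EDN1, 2 of 6 tested neighbours fell and 3 rose, and around OLR1 all 3 tested neighbours fell. Beside OLR1, GABARAPL1, an autophagy gene that starts 40320 bases away, fell from 60.8 ± 2.71 to 27.5 ± 1.06 FPKM (SD, n = 3 each). The difference was -1.12 (SE 0.04) on the log2(FPKM + 1) scale (adjusted p of 3.5e-06, limma). An antisense gene overlaps its exons. It was the neighbour that was called at 2-fold, while the C-type lectin genes CLEC1A, CLEC2B, CLEC2D, KLRB1 and KLRD1 around OLR1 had means of at most 0.372 FPKM. OLR1 was therefore the C-type lectin gene with substantial expression among those of this cluster that were analysed. The other tested neighbours of OLR1, EIF2S3B and MAGOHB, had differences of -0.48 and -0.46 (adjusted p of 0.00092 and 0.0002, limma).

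Beside EDN1, HIVEP1, which encodes a zinc finger protein and ends 125362 bases before EDN1, fell from 7.68 ± 0.132 to 3.95 ± 0.212 FPKM (SD, n = 3 each), with a difference of -0.81 in log2(FPKM + 1) (adjusted p of 1.6e-05, limma). A further gene on that side, TMEM170B, rose from 1.01 ± 0.0640 to 1.96 ± 0.251 FPKM, and TBC1D7 on the other side rose from 1.68 ± 0.186 to 3.41 ± 0.151 FPKM (SD, n = 3 each), with adjusted p-values of 0.0013 and 0.00014 (limma). Neighbours of EDN1 thus moved in both directions. Exons of HIVEP1 and TBC1D7 overlap other genes, so their values are less certain.

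Genes that act with the endothelin axis and with OLR1 were then tested, using lists of processing enzymes, signaling proteins, transcription factors, scavenger receptors and related groups. Of 68 list genes tested, 24 rose and 22 fell (limma, adjusted p within 0.05). Over all 14400 tested genes, 31.9% rose and 26.2% fell at this threshold, and the counts of each list below are to be read beside these shares. Of the list genes, KLF2 was called at 2-fold, or 1.47% of them against 3.61% of all tested genes. The median log2 fold change of all tested genes was 0.01. No list gene fell by 2-fold in this fit, whereas voom on fragments called 4 of 80 list genes, or 5% against 11.5% of all genes in that fit, with KLF2 and GNAI2 higher and CCL2 and PLCB4 lower.

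Processing and breakdown of the peptide involved 4 tested genes of 11 listed, of which 2 rose, 1 fell and 1 did not pass, with a median of 0.15. CTSA, a lysosomal protease known to degrade endothelin 1, rose from 11 ± 0.341 to 17.7 ± 0.421 FPKM (SD, n = 3 each), with a difference of 0.64 in log2(FPKM + 1) (adjusted p of 1.7e-05, limma), and exons of 3 genes on the opposite strand overlap it. The precursor protease PCSK6 fell by 0.25 (adjusted p of 0.0037, limma) and also overlaps other genes. FURIN was at 41.5 ± 2.43 FPKM in DMSO and rose by 0.19 (adjusted p of 0.01, limma).

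For receptor signaling, 25 of 31 listed genes were tested, of which 11 rose, 5 fell and 9 did not pass, with a median of 0.05. GNAI2, an inhibitory G protein subunit, rose from 15.0 ± 0.791 to 30.7 ± 1.20 FPKM (SD, n = 3 each), with a difference of 0.99 in log2(FPKM + 1) (adjusted p of 6.8e-06, limma). ITPR1, a calcium channel of the endoplasmic reticulum, fell from 33.4 ± 1.47 to 19.4 ± 0.430 FPKM (SD, n = 3 each), with a difference of -0.75 in log2(FPKM + 1) (adjusted p of 1.1e-05, limma), and an antisense gene overlaps it. The Gq subunit GNAQ, through which EDNRA signals, had 11.1 FPKM in both groups, and its difference of 0.00 had a standard error of 0.05.

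Of 23 transcription factors known to act on the EDN1 promoter in other cells, 21 were tested. By limma with an adjusted p within 0.05, 11 fell and 6 rose, against 26.2% and 31.9% of all tested genes, and the median was -0.12. KLF2, which is known to repress EDN1 in endothelial cells, rose from 3.17 ± 0.358 to 10.4 ± 1.46 FPKM (SD, n = 3 each), with a difference of 1.45 (SE 0.10) in log2(FPKM + 1) (adjusted p of 2.7e-05, limma). It was the member of the list that was called, and it was called under every alternative setting. KLF4, also on the list, fell by 0.47 (adjusted p of 0.00031, limma). Factors of the GATA, hypoxia and AP-1 families, whose motifs occur in the EDN1 window, did not share a direction. GATA2 had 12 ± 0.704 and 11.7 ± 0.402 FPKM (SD, n = 3 each) in DMSO and PD (adjusted p of 0.57, limma). GATA6 fell by 0.33 (adjusted p of 0.018, limma). HIF1A fell by 0.60 (adjusted p of 0.00011, limma), while EPAS1 rose by 0.13 (adjusted p of 0.018, limma). JUN fell by 0.50 (adjusted p of 0.0013, limma), while JUNB rose by 0.44 (adjusted p of 0.0015, limma). The lowest difference among the tested factors was that of NFKB1 at -0.66 (adjusted p of 1.9e-05, limma), while RELA rose by 0.11 (adjusted p of 0.05, limma). VEZF1, SMAD2, SMAD3 and EP300 also fell, with differences of -0.55, -0.51, -0.45 and -0.35 (adjusted p of 0.00065, 8.2e-05, 7.8e-05 and 0.001, limma). The part of these factors in the level of EDN1 was not tested.

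**Figure D5:**
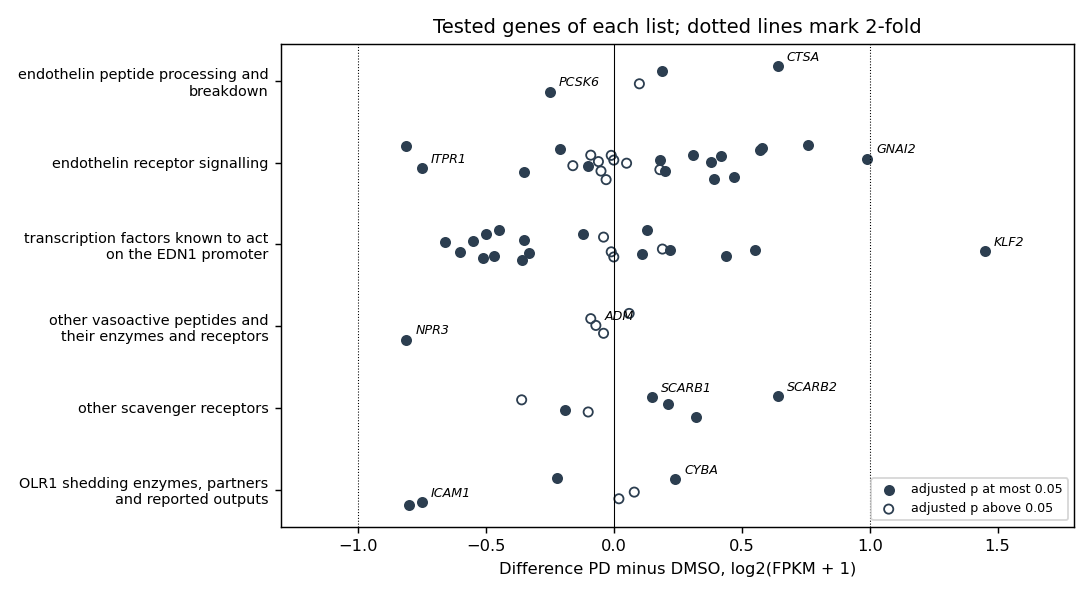
Difference PD minus DMSO on the log2(FPKM + 1) scale for the tested genes of each list, filled where limma gave an adjusted p within 0.05 and open otherwise, with vertical jitter and dotted lines at 2-fold. KLF2 (1.45) was the point past 2-fold, and no point lay below -1.

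Among the other scavenger receptors, 7 of 17 were tested, of which 4 rose, 1 fell and 2 did not pass, with a median of 0.15. SCARB2, a lysosomal membrane protein, rose from 24.3 ± 1.05 to 38.5 ± 0.507 FPKM (SD, n = 3 each), with a difference of 0.64 in log2(FPKM + 1) (adjusted p of 1.5e-05, limma). SCARB1, the receptor for high-density lipoprotein, rose by 0.15 (adjusted p of 0.0093, limma) and overlaps an antisense gene. CD36, another receptor for oxidized LDL, had at most 0.0242 FPKM in any library. The receptor that fell was CXCL16, with a difference of -0.19 (adjusted p of 0.013, limma), and the lowest difference was that of AGER at -0.36, which did not pass (adjusted p of 0.075, limma).

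For shedding enzymes, partners and reported outputs of OLR1, 6 of 11 genes were tested, of which 1 rose, 3 fell and 2 did not pass, with a median of -0.10. ICAM1, an adhesion molecule that OLR1 signaling is known to raise, fell from 13.7 ± 0.151 to 7.78 ± 1.13 FPKM (SD, n = 3 each), with a difference of -0.75 in log2(FPKM + 1) (adjusted p of 0.00033, limma), and genes on the opposite strand overlap it. CCL2, a monocyte chemokine, fell from 1.5 ± 0.213 to 0.440 ± 0.129 FPKM (SD, n = 3 each), with a difference of -0.80 on the log2(FPKM + 1) scale and of -1.78 with voom on fragments. CYBA, a subunit of the NADPH oxidase, rose by 0.24 (adjusted p of 0.00046, limma). The proteases ADAM10 and ADAM17, which can shed OLR1, had differences of 0.02 and 0.08 and did not pass (adjusted p of 0.83 and 0.28, limma). Whether the levels of ICAM1, CCL2 or the other genes of this list depend on OLR1 was not tested.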

How the data were processed

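RNA-seq of 3 PD and 3 DMSO libraries was analysed from the FPKM that the authors deposited. Per the paper and the labels, the authors used HISAT2 (hg38) for alignment and HTSeq (0.6.0) for counting paired-end reads per gene, and expressed these as FPKM. Symbols and coordinates are from GENCODE release 44.

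The 14400 of 28563 genes averaging 0.5 FPKM or more were fitted with limma 3.58.1 in R 4.3.3 on log2(FPKM + 1), with an intensity trend and Benjamini-Hochberg adjustment. The table holds FPKM rather than counts, so the main test was on this log scale. A gene was called when its adjusted p was within 0.05 and its change reached 2-fold. The pseudocount makes fold changes of low genes smaller.

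Whole fragments were worked back from the FPKM steps of all 28563 genes, within 0.001 of a whole number, for 12879 of them with GENCODE exon lengths and for 15684 with a common step. They served for depth, exact intervals (scipy 1.17.1) and limma voom (at least 10 fragments in 3 libraries). Library pairs within a group differed by a chi-square of 2.22 to 3.55 per gene, where sampling noise gives about 1, so none was a duplicate. The code was tested on simulated data.

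The members and lists were chosen with earlier results of these data known. Named were all members, from each list up to 4 called genes with the largest change or else the 2 with the smallest adjusted p, the 5 genes most like EDN1 and OLR1, and their neighbours. FURIN, GNAQ, GATA2, GATA6, HIF1A, EPAS1, JUN, JUNB, KLF4, CD36, AGER, CXCL16, NPR1, ADAM10, ADAM17, CCL2, PLCB4 and the markers were named after their values were seen. NFKB1, RELA, VEZF1, SMAD2, SMAD3 and EP300 were also named in this way. Alternatives were a pseudocount of 0.1, no filter, the replicate number as a block, 2 scalings, voom, and each library left out. A further list is not reported here.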

Additional observations from a re-analysis of the deposited data

How the results depend on the processing

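The members kept their direction under all settings in which they could be fitted. With a pseudocount of 0.1 the differences were -3.12 for EDN1, -0.99 for EDNRA and -2.34 for OLR1, and voom on fragments gave -3.16, -1.01 and -2.35. Both settings add a smaller amount to each value than the main fit. Scaling by the upper quartile gave 0.07 for ECE1. With a library left out, the difference was -2.86 to -2.71 for EDN1, -2.32 to -2.20 for OLR1, -0.84 to -0.78 for EDNRA, 0.10 to 0.14 for ECE1 and 0.11 to 0.22 for ECE2. EDN2 was under the minimum in these fits and has a value (-0.44) without the filter alone, and its 7 fragments in PD limit what can be said of it.

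The number of called genes was 520 as reported, 1248 with a pseudocount of 0.1, 1734 by voom, 497 without a filter, 507 and 511 with the scalings, and 511 to 561 with a library left out. With the replicate number as a block it was 518. Samples with the same number did not consistently deviate together (correlations of -0.027, -0.005 and 0.09), and not every sample correlated best with its own number. With 3 libraries per group, these correlations cannot exclude pairing by number. KLF2 stayed called with the block. Of the list genes, 3 of 68 (4.41%) were called with a pseudocount of 0.1 against 8.67% of all genes, 4 of 80 (5%) by voom against 11.5%, and 1 of 68 (1.47%) after scaling by the upper quartile against 3.52%. GNAI2 was called with a pseudocount of 0.1, by voom and without DMSO replicate 3 or PD replicate 1.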

Other observations

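Other peptides that act on blood vessels were mostly low or little changed beside EDN1. Of 25 genes of vasoactive peptides, their enzymes and receptors, 5 were tested, 1 fell and 4 did not pass (limma, adjusted p within 0.05). Of all tested genes, 26.2% fell and 31.9% rose at this threshold. ADM, which encodes the vasodilator adrenomedullin, had 11.2 ± 0.999 FPKM in DMSO and 10.6 ± 0.343 FPKM in PD (SD, n = 3 each), with a difference of -0.07 with a standard error of 0.06. NPR3, the clearance receptor of natriuretic peptides, fell from 19.2 ± 1.24 to 10.5 ± 0.691 FPKM (SD, n = 3 each), with a difference of -0.81 in log2(FPKM + 1) (adjusted p of 3.9e-05, limma). NPR1, the receptor with guanylate cyclase activity, had 36.1 ± 1.84 and 35.2 ± 1.84 FPKM (SD, n = 3 each).

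Of the endothelial markers, EGFL7 rose from 12.4 ± 0.633 to 23.6 ± 1.03 FPKM (SD, n = 3 each; adjusted p of 1.2e-05, limma). Of the hepatocyte markers, CPS1 fell by -1.04 in log2(FPKM + 1) (adjusted p of 1.6e-06, limma). The summed FPKM of the 10 endothelial markers analysed was 42.1 to 45.3 in DMSO and 57.6 to 60.8 in PD, nearly all of it from ESAM and EGFL7. Of 5 stellate cell and fibroblast markers analysed the sum was 4.86 to 5.73 FPKM in DMSO and 5.83 to 6.32 FPKM in PD, and of 3 smooth muscle markers 1.33 to 1.74 and 1.35 to 1.41 FPKM.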
